A study of Mus musculus with 12 samples.

Results

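The genes described here take up and carry fatty acids, and they were followed in liver and subcutaneous fat of male mice that received human HKDC1 in hepatocytes. The members were the rows of the count table whose symbol is Cd36, Slc27a1, Slc27a2, Slc27a4, Fabp1, Fabp3, Fabp4, Fabp5, Lpl or Cav1, which gave 10 genes of the 54532 in the table. Each was read in all 12 libraries. HKDC1 is a hexokinase-like enzyme, and the study asked what its lasting overexpression in liver does to the liver and to other tissues.

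Mice of the hHKDC1 OE groups received 1 tail vein injection of AAV8-TBGp that carries full-length human HKDC1, and mice of the null groups received AAV8-TBGp without it. The thyroxine-binding globulin promoter (TBGp) is active in hepatocytes, so adipocytes were not the cells meant to express the transgene. Injection was at 10 weeks of age, all mice then ate a low-fat diet, and tissue was taken 16 weeks later. Each tissue had 3 null and 3 hHKDC1 OE libraries, and the depth of a library was 15496019 to 19954971 counts on genes. The sample descriptions call replicates 2 and 3 of hHKDC1 OE in each tissue knockouts, whereas their titles and treatment labels place them with the overexpressing samples, where they were kept. Human HKDC1 was not analysed here, so the transgene could not be checked library by library, and mouse Hkdc1 had at most 8 counts in a library. For fat the libraries of a group came from separate mice, by the description of the fat sequencing. For liver no source used here says that libraries of a group came from separate mice, so p-values there measure the spread between these libraries only. The labels do not say whether liver and fat libraries of the same number came from the same mouse, so comparisons between the tissues and the interaction may join libraries of the same mice.

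Long-chain fatty acids reach a cell as albumin-bound acid or are released from triglyceride of circulating lipoproteins by lipoprotein lipase, which Lpl encodes. At the membrane, CD36 binds fatty acids and promotes their entry, caveolin-1 forms the coat of caveolae, the membrane pits that are abundant in adipocytes, and the SLC27 (FATP) proteins couple uptake to activation with coenzyme A. Inside the cell, the fatty acid-binding proteins (FABP) carry fatty acids through the cytosol: FABP1 is the liver form, FABP3 the heart and muscle form, FABP4 the adipocyte form and FABP5 the epidermal form, which adipocytes and macrophages also make.

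The 4 FABP genes are relatives, and the first 90 bases of each coding sequence show how far apart their transcripts are for a read to be placed on one of them. The sequences were read from the principal transcripts of GENCODE mouse release M21 on GRCm38. Fabp4 is given as the reference in lower case, and capitals in the others mark bases that match Fabp4 in a global alignment of the coding sequences, in which 49 of the printed bases of Fabp5, 67 of Fabp3 and 49 of Fabp1 matched.
Fabp4: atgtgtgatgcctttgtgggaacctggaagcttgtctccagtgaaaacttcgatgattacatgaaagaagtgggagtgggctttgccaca
Fabp5: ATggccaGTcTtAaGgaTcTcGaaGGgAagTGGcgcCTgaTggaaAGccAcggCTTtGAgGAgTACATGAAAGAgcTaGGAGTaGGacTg
Fabp3: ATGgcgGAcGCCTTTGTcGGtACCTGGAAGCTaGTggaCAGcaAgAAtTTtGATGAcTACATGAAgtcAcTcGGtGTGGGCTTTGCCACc
Fabp1: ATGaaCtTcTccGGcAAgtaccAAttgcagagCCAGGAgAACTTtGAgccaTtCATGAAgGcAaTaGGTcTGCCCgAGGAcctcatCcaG

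Over the whole coding sequence Fabp4 shared 65.3% of aligned bases with Fabp3, 60.8% with Fabp5 and 48.8% with Fabp1, and the longest run of identical bases between any pair was 14. The near-identical copies of these genes in the table held almost no reads, with at most 5 counts in a library for the Fabp3 pseudogene and at most 3 for the Fabp5 pseudogenes. Fabp4 and Fabp5 are neighbours on chromosome 3, at chr3:10204088-10208576 on the minus strand and chr3:10012548-10016607 on the plus strand, while Fabp1 lies at chr6:71199827-71205023 and Fabp3 at chr4:130308595-130315463, both on the plus strand. The span of Fabp3 overlaps that of Zcchc17 on the opposite strand, and the libraries kept no strand. Whether exons of these genes overlap was not checked, and reads of any shared exon could not be assigned to either gene. Zcchc17 itself had at most 733 counts in a library.

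The other members lie apart from each other on GRCm38. Cd36 is at chr5:17781690-17888801 on the minus strand. On the plus strand are Slc27a1 at chr8:71568882-71587302, Lpl at chr8:68880491-68907448, Slc27a2 at chr2:126552407-126588243, Slc27a4 at chr2:29802634-29817522 and Cav1 at chr6:17306335-17341452. All values are sums over the exons of a gene. Levels are given as the deposited FPKM, fragments per kilobase of exon. They are scaled by the DESeq2 size factor of each library over both tissues, not by its total counts. Comparisons of fat with liver in FPKM therefore depend on this scaling. The length used was the union of the exons of every transcript, which for Fabp4 was 4489 bases and 5.01 times the 896 bases of its principal transcript. Where genes are compared with each other, the level per principal transcript length is therefore given as well.

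**Figure D1:**
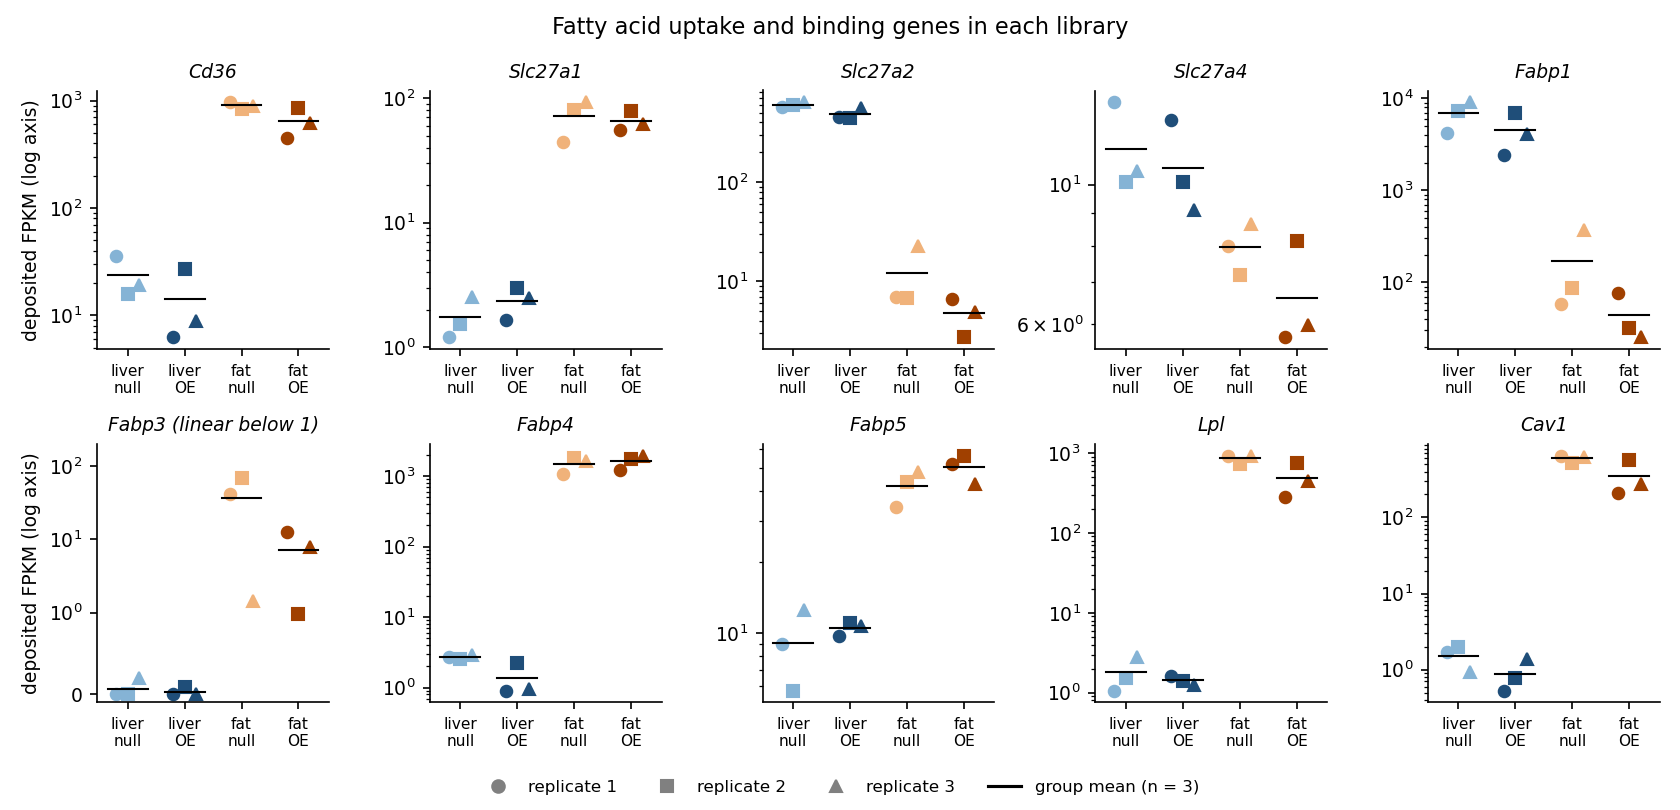
Deposited FPKM (log axis, with a linear stretch below 1 for Fabp3) of the 10 members in liver and fat of null and hHKDC1 OE mice, 3 libraries per group marked by replicate number, with a line at the group mean. Fabp1 and Slc27a2 stand high in liver, Fabp4, Lpl, Cd36 and Cav1 stand high in fat, and Slc27a4 is at a like level in both.

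Most of these genes were at very different levels in the 2 tissues, and Slc27a4 was the exception. Fabp4 was the most abundant member in fat and Fabp1 the most abundant in liver, and each was at a small fraction of its level in the other tissue. In null fat the Fabp4 level was 1083, 1809 and 1634 FPKM, and in null liver it was 2.68, 2.51 and 2.86 FPKM. Its log2 fold change from liver to fat was 9.08 (standard error 0.39), with an adjusted p of 2.3e-06 by edgeR's quasi-likelihood test. In the hHKDC1 OE mice it was 10.16 (standard error 0.69). No fat library came near a liver library.

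All 10 members passed the test between tissues in null mice and again in hHKDC1 OE mice, by edgeR with Benjamini-Hochberg adjustment over all genes tested. In null mice 7 were higher in fat, where 33.8% of all genes tested were called higher, and 3 were lower in fat, where 30.5% were called lower. In hHKDC1 OE mice the same 7 and 3 were called, beside 31.2% of genes called higher and 25.5% called lower. These shares of all genes depended on how the tissues were scaled to each other. In null mice 5163 of 15259 genes were called higher and 4647 lower with TMM scaling, but 9012 and 2286 with library size alone.

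Of the genes that act at the membrane, Cd36 was at 966.0, 842 and 899 FPKM in null fat and at 35.8, 15.9 and 19.0 FPKM in null liver. Its level was 37.0-fold higher in fat (log2 fold change 5.21, standard error 0.38). Cav1 was at 649.9, 520.0 and 629.7 FPKM in null fat and at 1.68, 1.97 and 0.94 FPKM in null liver, where it had 39 to 77 counts. The log2 fold change of Cav1 from liver to fat was 8.56 (standard error 0.38).
Slc27a1, the FATP of muscle and fat, was at 44.0, 80.8 and 92.5 FPKM in null fat against 1.20, 1.54 and 2.52 in null liver, a log2 fold change of 5.31 (standard error 0.42). Slc27a2, the very long-chain acyl-CoA synthetase FATP2 of liver and kidney, had the opposite pattern. It was at 569.0, 602.5 and 637.8 FPKM in null liver and at 7.00, 6.74 and 22.6 FPKM in null fat, a log2 fold change of -5.70 (standard error 0.56).
Slc27a4, the widely expressed FATP4, was the member that differed least between the tissues. It was at 13.5, 10.1 and 10.5 FPKM in null liver and at 7.99, 7.18 and 8.67 FPKM in null fat. On the FPKM scale the groups did not overlap. The log2 fold change of -0.57 (standard error 0.14) had an adjusted p of 0.0089 by edgeR. With library size alone in place of the TMM scaling the difference turned to 0.33 in null mice and 0.27 in hHKDC1 OE mice, so its direction depended on how the tissues were scaled to each other. Its call was also lost in null mice without fat replicate 2 (adjusted p 0.0511 by edgeR), and in hHKDC1 OE mice without fat replicate 1, fat replicate 3 or liver replicate 1 or with upper-quartile scaling (adjusted p 0.0507 to 0.0674).

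Lpl, the lipase itself, was at 922, 734 and 927 FPKM in null fat and at 1.07, 1.54 and 2.83 FPKM in null liver. Its log2 fold change from liver to fat was 8.83 (standard error 0.54), and in hHKDC1 OE mice it was 8.37 (standard error 0.58).

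Among the binding proteins, Fabp1 was at 4219.9, 7376 and 9078 FPKM in null liver and at 57.6, 86.2 and 368 FPKM in null fat. The log2 fold change from liver to fat was -5.41 (standard error 0.80) in null mice and -6.71 (standard error 0.69) in hHKDC1 OE mice. Fabp5 was present in both tissues, at 34.3, 43.7 and 48.1 FPKM in null fat and 9.05, 5.74 and 12.5 FPKM in null liver, a log2 fold change of 2.15 (standard error 0.29).
Fabp3 was all but absent from liver, with 0, 0 and 2 reads counted for null mice and 0, 1 and 0 for hHKDC1 OE mice, where a count of 0 allows up to 3. Fat held 2030 Fabp3 counts over the 3 null libraries, which as CPM (counts scaled to the total of the library) was 915 times the liver level, with an exact 95% interval of 253 to 7565 for counting error only. In hHKDC1 OE mice the ratio was 462, with an interval of 82.6 to 18304. These ratios depended on the scaling and on single fat libraries. On the FPKM scale the ratios of means were 549.8 and 250.4. As CPM the ratio in null mice was 533 without fat replicate 2 and 1377 without fat replicate 3, and in hHKDC1 OE mice 261 without fat replicate 1.

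**Figure D2:**
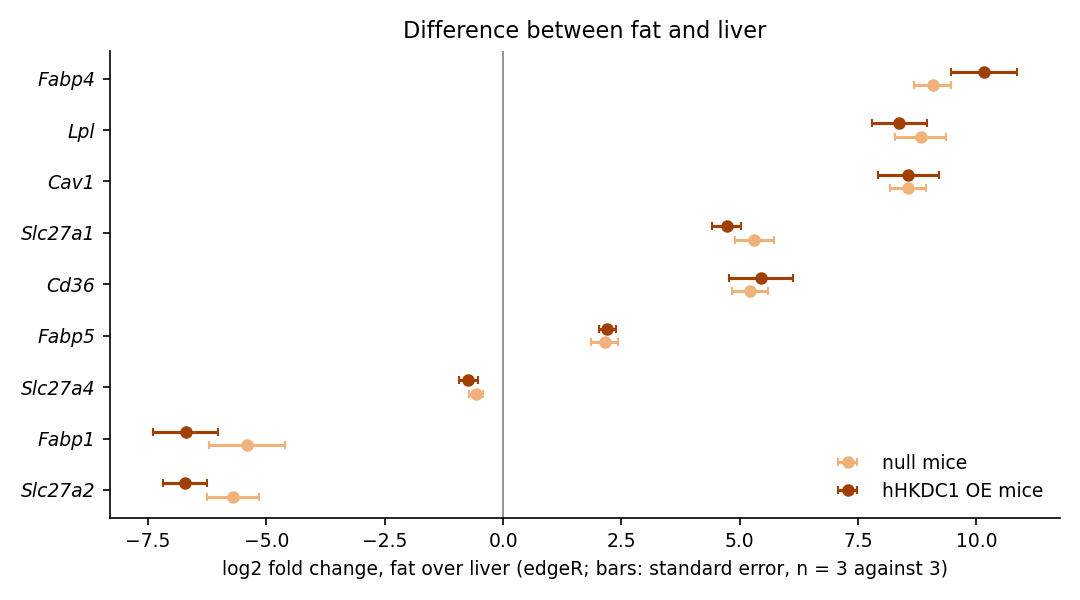
Log2 fold change of fat over liver (horizontal axis) for 9 members in null and in hHKDC1 OE mice, with the standard error from edgeR and 3 libraries per group, Fabp3 left out because its liver counts were 0 to 2. Fabp4, Lpl and Cav1 lie between 8.37 and 10.16, and Slc27a2 and Fabp1 between -6.72 and -5.41.

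Per principal transcript length, the order in null fat was Fabp4 at 7559 ± 1899.6 (SD, n = 3), Lpl at 2192, Cd36 at 953, Cav1 at 819, Fabp1 at 171, Fabp5 at 152, Slc27a1 at 151, Fabp3 at 36.9, Slc27a2 at 15.6 and Slc27a4 at 8.65. Each of the first 4 genes lay clear of the next over the libraries, as Slc27a1 did of Fabp3. The ranges of Fabp1, Fabp5 and Slc27a1 overlapped in turn, as did those of Fabp3, Slc27a2 and Slc27a4. With the deposited lengths Cd36 stood above Lpl and their ranges overlapped, so the order of these 2 genes depended on the length used. In null liver the order was Fabp1 at 6891 ± 2465 (SD, n = 3), Slc27a2 at 776, Fabp5 at 32.9, Cd36 at 24.9, Fabp4 at 13.5, Slc27a4 at 12.4, Lpl at 4.62, Slc27a1 at 3.66, Cav1 at 2.09 and Fabp3 at 0.067. Here Fabp1 and Slc27a2 were clear of the gene next in order, whereas Fabp5 overlapped with Cd36, Fabp4 with Slc27a4, and Lpl with Slc27a1, which overlapped with Cav1. With the deposited lengths Cd36 was at 15.9 to 35.8 FPKM in null liver and Fabp5 at 5.74 to 12.5 FPKM, below every Cd36 value. Slc27a4 at a mean of 11.4 FPKM then stood above Fabp5 at 9.11, with overlap, and above Fabp4 at 2.69, without overlap. The order of Fabp5, Cd36, Fabp4 and Slc27a4 in liver, like that of Fabp5 and Slc27a1 in fat, thus depended on the length used.

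The labelled tissues were checked against markers before the vectors were compared. The 10 hepatocyte markers summed to 56128 to 92629.6 FPKM in liver and the 8 adipocyte markers to 5463 to 9296 FPKM in fat, so both tissues carried their defining genes. The fat libraries also differed in other cells. The sum of 6 B cell markers was 0.53 to 1.00 FPKM in null fat but 247, 14.5 and 155 FPKM in hHKDC1 OE fat, and 6 T cell markers summed to 0.90 to 2.52 FPKM in null fat and 94.6, 7.52 and 105 FPKM in hHKDC1 OE fat. The hHKDC1 OE replicates 1 and 3 of fat thus stood apart from replicate 2 and from the null libraries, and results are also given without one or the other. In bulk tissue, fewer cells of a type and less RNA per cell cannot be told apart.

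In fat, Lpl, Cav1 and Cd36 were low in hHKDC1 OE replicates 1 and 3 and close to the null libraries in replicate 2, while Fabp4 and Fabp5 were not low. No member passed edgeR's test between hHKDC1 OE and null fat. By edgeR 0 of 10 members and 0 of 16380 genes (0.0%) had an adjusted p under 0.05, with 2903 genes at an unadjusted p under 0.05, 1 member among them. DESeq2 called 1431 genes, with 1 member, Fabp1, among them as lower (adjusted p 0.0474). Of the members 8 had a lower mean in hHKDC1 OE fat by the fitted values, with a median log2 fold change of -0.59 beside -0.05 over all genes tested, of which 53.9% were lower.

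Lpl was at 279, 748 and 443 FPKM in hHKDC1 OE fat against 922, 734 and 927 FPKM in null fat. The groups overlapped only through hHKDC1 OE replicate 2 and null replicate 2. In TMM-scaled CPM they did not overlap, by a narrow margin (hHKDC1 OE replicate 2 at 10429, null replicate 2 at 10597), as held for 10.2% of all genes tested in the lower direction. In CPM by library size alone they overlapped, with these libraries at 11079 and 9643. On the log2 scale Lpl was at -0.78 against null fat (standard error 0.41), with an adjusted p of 0.362 by edgeR.
Cav1 was at 206, 575 and 271 FPKM in hHKDC1 OE fat, where null fat had 520.0 to 649.9. Replicates 1 and 3 lay under every null library and replicate 2 lay within the null range. Its log2 fold change was -0.74 (standard error 0.38), with an adjusted p of 0.355 by edgeR.
Cd36 was at 446, 863 and 624 FPKM in hHKDC1 OE fat, and again only replicate 2 reached the null range of 842 to 966.0. In TMM-scaled CPM the groups did not overlap, again narrowly, with hHKDC1 OE replicate 2 at 4121 and the lowest null library at 4162. In CPM by library size alone they overlapped, and replicate 2 at 4377 was above all 3 null libraries (3787 to 4346). Lpl and Cd36 were the 2 members of 10 lower without overlap in TMM-scaled CPM, beside the 10.2% of all genes. The fitted Cd36 log2 fold change was -0.44 (standard error 0.30), with an adjusted p of 0.457 by edgeR.

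The call on these genes turned on hHKDC1 OE replicate 2. Without it, edgeR called 3251 genes, 7.53% of the genes tested as lower, and Cav1 and Lpl were among these. Replicate 2 held the highest Lpl, Cav1 and Cd36 of the hHKDC1 OE fat libraries, so results without it are no test of these genes. Cav1 then had a log2 fold change of -1.25 (adjusted p 0.0102) and Lpl one of -1.17 (adjusted p 0.0290), while Cd36 at -0.67 had an adjusted p of 0.0780 by edgeR. With replicates 1 and 3 left out instead, which leaves 1 hHKDC1 OE library whose spread is assumed to be that of the null group, the log2 fold changes were -0.08 for Cav1, -0.22 for Lpl and -0.09 for Cd36, with adjusted p of 0.930 to 0.975 by edgeR.

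**Figure D3:**
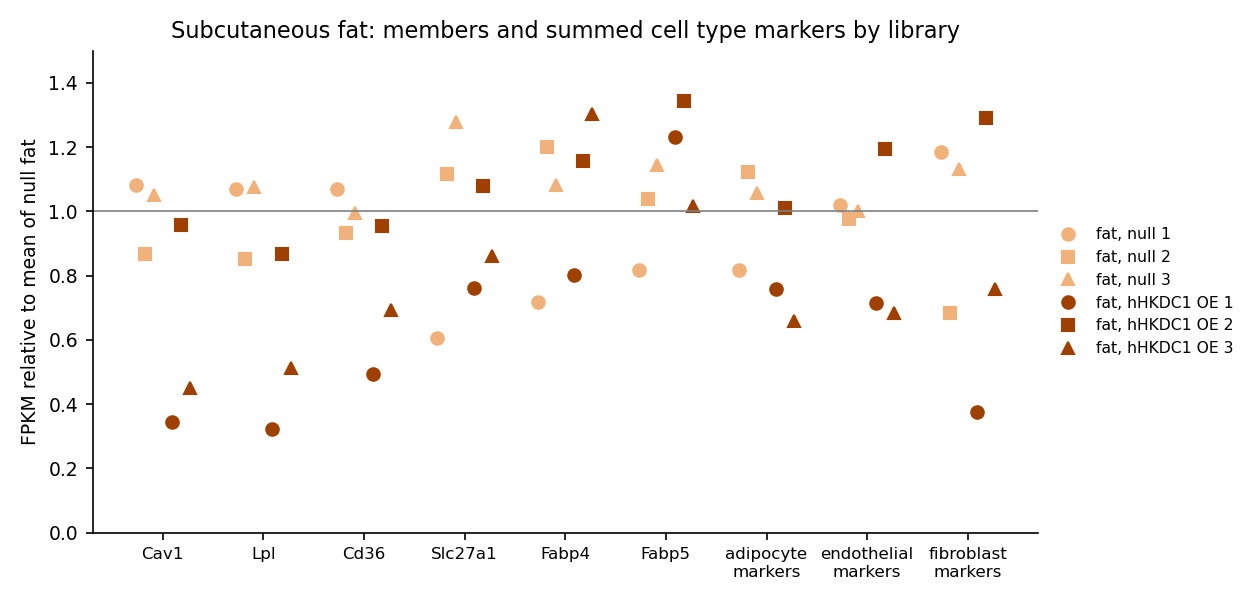
FPKM of 6 members and the summed FPKM of 3 marker lists in each fat library, divided by the mean of the 3 null fat libraries (line at 1). Lpl, Cav1 and Cd36 lie lowest in hHKDC1 OE replicates 1 and 3, where the adipocyte and endothelial sums are also low, and Fabp4 and Fabp5 do not follow them.

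Markers of adipocytes and endothelium, cells in which these genes are active, were read in the same libraries. By edgeR 0 of 8 adipocyte and 0 of 8 endothelial markers were called between hHKDC1 OE and null fat. The same fit called 0 of 16380 genes, so this count cannot show that these cells were unchanged. Of these markers 0 had an unadjusted p under 0.05. In each list 7 of 8 markers had negative fitted values in hHKDC1 OE fat. On the log2 scale the adipocyte median was -0.38 and the endothelial median -0.24, beside -0.05 over all genes tested. The summed levels of both lists overlapped between the groups. The adipocyte markers, all 8 with counts in every fat library, summed to 6773 to 9296 FPKM in null fat and to 6271, 8369 and 5463 FPKM in hHKDC1 OE fat. The 8 endothelial markers, also all with counts, summed to 178 to 186 FPKM in null fat and to 130, 218 and 125 FPKM in hHKDC1 OE fat. Set against the adipocyte sum of its own library, Lpl was at 136, 79.0 and 106 FPKM per 1000 in null fat and at 44.4, 89.4 and 81.0 in hHKDC1 OE fat, so the groups overlapped on that scale, with replicate 1 alone under the null range. Cav1 was at 96.0, 55.9 and 72.0 per 1000 in null fat and at 32.9, 68.7 and 49.6 in hHKDC1 OE fat, and replicates 1 and 3 lay under the null range here too. Cd36 was at 143, 90.5 and 103 per 1000 in null fat and at 71.2, 103 and 114 in hHKDC1 OE fat, with replicate 1 alone under the null range. The part of the mixture of cells in the levels of Lpl, Cav1 and Cd36 was not tested further.

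Fabp4 was at 1209, 1747 and 1968 FPKM in hHKDC1 OE fat, within or above the null range of 1083 to 1809. Its log2 fold change was 0.17 (standard error 0.37), with an adjusted p of 0.817 by edgeR. Fabp4 and Lpl, both genes of adipocytes, therefore stood in different proportion in the libraries. The Fabp4 level was 1.17, 2.46 and 1.76 times that of Lpl in null fat, 4.34 and 4.45 times in hHKDC1 OE replicates 1 and 3, and 2.34 times in replicate 2. These ratios use the deposited lengths and compare libraries, not the genes.
Fabp5 was at 51.8, 56.5 and 42.7 FPKM in hHKDC1 OE fat against 34.3 to 48.1 in null fat, a log2 fold change of 0.31 (standard error 0.18) with an adjusted p of 0.398 by edgeR. The macrophage markers, all 8 with counts in every fat library, summed to 81.2 to 197 FPKM in null fat. In hHKDC1 OE fat they summed to 220, 229 and 238 FPKM, without overlap, and replicate 3 with the highest sum had the lowest Fabp5 of this group. The 8 markers of epidermis and other keratinised epithelium summed to 74.2, 7.21 and 33.5 FPKM in null fat. In hHKDC1 OE fat these summed to 2.85, 7.67 and 4.28 FPKM, with overlap. The part of macrophages or epithelium in the Fabp5 level was not tested.
Slc27a1 was at 55.3, 78.2 and 62.4 FPKM in hHKDC1 OE fat, inside the null range of 44.0 to 92.5, and its log2 fold change of -0.10 (standard error 0.30) was the smallest of the members. Slc27a4 was at 5.72, 8.14 and 5.98 FPKM against 7.18 to 8.67 in null fat, with replicate 2 again the highest of the hHKDC1 OE libraries. Its log2 fold change was -0.22 (standard error 0.16).

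The members with the widest spread in fat were those whose main site is another tissue. Fabp1 ranged 14.6-fold over the 6 fat libraries, Slc27a2 ranged 8.25-fold and Fabp3 ranged 68.8-fold, against 1.52-fold to 3.33-fold for the other 7 members.
Fabp1 was at 57.6, 86.2 and 368 FPKM in null fat and at 76.0, 32.1 and 25.3 FPKM in hHKDC1 OE fat. The groups overlapped, and null replicate 3 was far above the others. The difference on the log2 scale was -1.86 (standard error 0.76), with an adjusted p of 0.268 by edgeR. DESeq2 gave an adjusted p of 0.0474 and called it lower, as it did 0.941% of the genes it tested. Without null replicate 3 the log2 fold change by edgeR was -0.68, with an adjusted p of 0.528.
Slc27a2 was at 7.00, 6.74 and 22.6 FPKM in null fat and at 6.66, 2.74 and 4.93 FPKM in hHKDC1 OE fat, so the groups did not overlap, by a narrow margin. It was the only member for which this held on the FPKM scale in fat, and 11.9% of all genes tested were lower without overlap in this way. In TMM-scaled CPM Slc27a2 overlapped. Its log2 fold change of -1.26 (standard error 0.55) had an adjusted p of 0.290 by edgeR, and was -0.50 without null replicate 3.

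Hepatocyte markers were read in the same fat libraries. The 10 hepatocyte markers, all with counts in every fat library, summed to 1089.7, 1155 and 3636 FPKM in null fat and to 890, 356 and 491 FPKM in hHKDC1 OE fat, where the groups did not overlap. Null replicate 3 held the highest sum as well as the highest Fabp1 and Slc27a2. Per 1000 counts of Alb, the albumin gene, null fat held 24.5, 37.7 and 56.0 counts of Fabp1, and null liver held 22.2, 43.3 and 54.4. In hHKDC1 OE fat the values were 52.4, 57.1 and 31.0, and in hHKDC1 OE liver they were 19.4, 58.2 and 44.9. On this scale Fabp1 ranged 2.33-fold over the fat libraries and the range overlapped with that of liver.
Slc27a2 per 1000 Alb counts was 20.2, 20.0 and 23.3 in null fat and 20.3, 24.0 and 26.0 in null liver. In hHKDC1 OE mice it was 31.2, 33.1 and 41.1 in fat and 25.1, 25.0 and 41.7 in liver. On this scale every hHKDC1 OE fat library lay above every null fat library. The scale rests on Alb alone, which was itself at 39390 to 44955 FPKM in null liver and at 21710 to 29173 FPKM in hHKDC1 OE liver. Per 1000 counts of the 10 hepatocyte markers, null fat held 13.4, 12.7 and 13.9 counts of Slc27a2. On that scale hHKDC1 OE fat held 16.6, 17.4 and 22.5, again without overlap. Null liver held 13.1, 14.7 and 15.5, and hHKDC1 OE liver held 13.1, 14.2 and 22.2. The part of liver RNA in the levels of Fabp1 and Slc27a2 in fat was not tested.

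**Figure D4:**
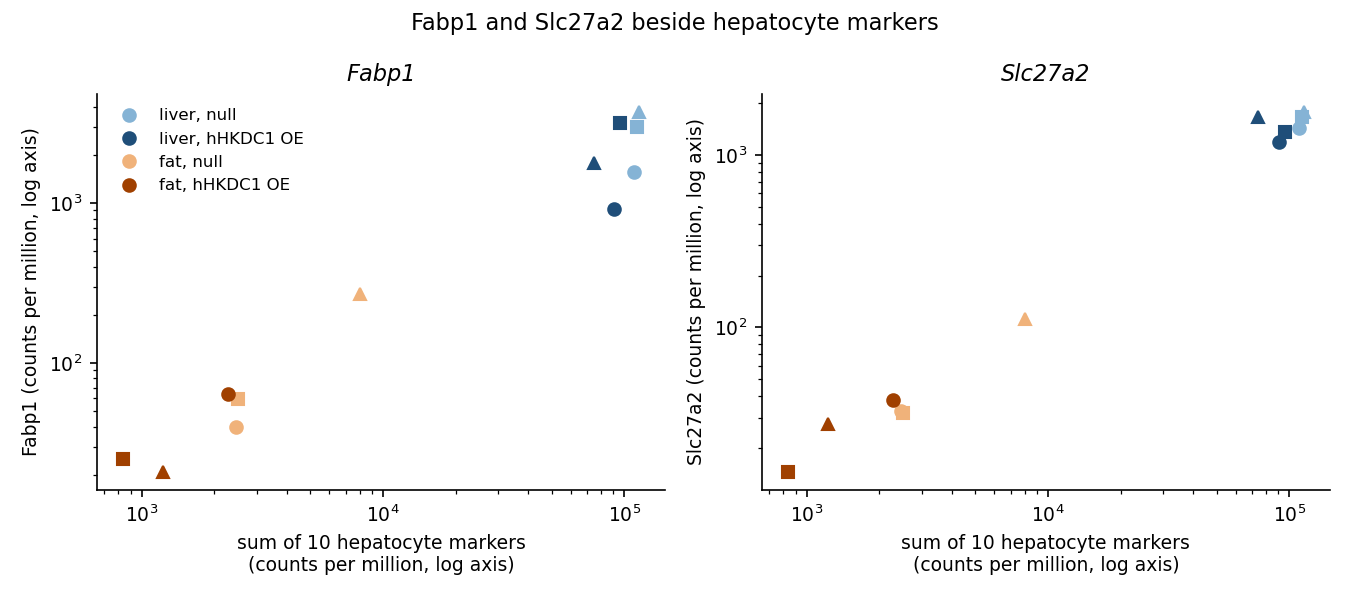
CPM of Fabp1 (left) and Slc27a2 (right) against the sum of 10 hepatocyte markers in CPM, both on log axes, for the 12 libraries coloured by group. The fat libraries lie low and the liver libraries high, with null fat replicate 3 the highest of the fat libraries in both.

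Fabp3 was at 41.8, 67.6 and 1.43 FPKM in null fat and at 12.4, 0.98 and 7.86 FPKM in hHKDC1 OE fat. Replicates of a group differed more than the groups did, and the log2 fold change of -2.32 (standard error 1.28) had an adjusted p of 0.376 by edgeR. The 8 skeletal muscle markers, all with counts in every fat library, summed to 6725, 7594 and 217 FPKM in null fat and to 5049, 391 and 877 FPKM in hHKDC1 OE fat. The 4 libraries with the highest muscle sums were those with the highest Fabp3, in the same order. Per 1000 counts of the muscle markers, Fabp3 had 2.05, 2.82 and 2.28 counts in null fat and 0.82, 0.86 and 2.98 counts in hHKDC1 OE fat. The 5 brown adipocyte markers, all with counts in every fat library, summed to 118, 245 and 60.1 FPKM in null fat. In hHKDC1 OE fat they summed to 350, 114 and 187 FPKM, with overlap. The part of muscle or of brown adipocytes in the Fabp3 level was not tested.

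In liver, Fabp1 and Slc27a2, the abundant members, were at somewhat lower values in hHKDC1 OE mice, and Cd36 and Fabp4 were low in hHKDC1 OE replicates 1 and 3. None of the members passed the test. By edgeR 0 of the 9 members tested and 0 of 13351 genes (0.0%) had an adjusted p under 0.05, with 927 genes at an unadjusted p under 0.05, 1 member among them. DESeq2 called 91 genes, no member among them. Fabp3 had too few counts to be tested. Of the 9 members 7 were lower by the fitted values, with a median log2 fold change of -0.33 beside 0.01 over all genes tested.

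Fabp1 was at 2402, 6938 and 4126 FPKM in hHKDC1 OE liver against 4219.9, 7376 and 9078 FPKM in null liver. The groups overlapped, and the spread within each was large beside the difference, a log2 fold change of -0.59 (standard error 0.40) with an adjusted p of 0.832 by edgeR.
Slc27a2 varied little, at 456, 439 and 564 FPKM in hHKDC1 OE liver against 569.0, 602.5 and 637.8 FPKM in null liver. The groups did not overlap on the FPKM scale but did in TMM-scaled CPM. A log2 fold change of -0.28 was fitted (standard error 0.17), with an adjusted p of 0.820 by edgeR.
The hepatocyte markers, all 10 with counts, summed to 90842 to 92629.6 FPKM in null liver and to 56128 to 76573 FPKM in hHKDC1 OE liver. Alb made up a large part of these sums. Of the 10 markers 4 were higher and 6 lower in hHKDC1 OE liver by the fitted values and their median log2 fold change was -0.17. Of these 0 were called by edgeR, with 2 at an unadjusted p under 0.05.

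Fabp4 was at 0.91, 2.25 and 0.97 FPKM in hHKDC1 OE liver, 49, 145 and 61 counts, against 2.68, 2.51 and 2.86 FPKM and 128 to 155 counts in null liver. It did not overlap between the groups on the FPKM scale or in TMM-scaled CPM, but it did in CPM by library size alone, where hHKDC1 OE replicate 2 was at 8.36 and null liver at 8.12, 8.26 and 9.58. In TMM-scaled CPM 6.18% of all genes tested were lower without overlap. The log2 fold change was -0.92 (standard error 0.35), with an adjusted p of 0.631 by edgeR. Fabp4 and Slc27a2 were the 2 members of 9 that were lower without overlap on the FPKM scale, as were 7.47% of all genes tested.
Cd36 was at 6.25, 27.3 and 8.93 FPKM in hHKDC1 OE liver against 35.8, 15.9 and 19.0 FPKM in null liver. Replicates 1 and 3 lay under every null library, and replicate 2 lay inside the null range. The log2 fold change was -0.68 (standard error 0.51), with an adjusted p of 0.850 by edgeR.
As in fat, the call turned on hHKDC1 OE replicate 2. Without it edgeR called 146 genes, 0.508% of the genes tested as lower, with Fabp4 among them at -1.49 on the log2 scale (adjusted p 0.0255). Cd36 was then at -1.60, with an adjusted p of 0.0585 by edgeR. Replicate 2 held the highest Fabp4 and Cd36 of the hHKDC1 OE liver libraries, so results without it are no test of these genes. With no filter on low counts and all 6 libraries, Cd36 was called at the same log2 fold change of -0.68, where edgeR gave an adjusted p of 0.0188 and called 327 genes, 0.593% of the genes tested as lower.

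The markers of the vessel wall and of adipocytes were low in the same liver libraries as Fabp4 and Cd36, and those of macrophages were not. The 8 endothelial markers, all with counts, summed to 26.3 to 32.9 FPKM in null liver and to 15.4, 25.4 and 15.1 FPKM in hHKDC1 OE liver, without overlap. As CPM the sums were 90.5 to 123 and 52.0 to 101.03, and overlapped. The 4 markers of sinusoidal endothelium, all with counts, summed to 31.7 to 46.5 FPKM in null liver and to 19.2, 34.1 and 18.6 FPKM in hHKDC1 OE liver. The adipocyte markers were near the floor in liver, with Lep, Retn, Plin1 or Adipoq at 0 counts in each of the libraries. They summed to 16.3 to 31.4 FPKM in null and to 6.94, 26.1 and 10.6 FPKM in hHKDC1 OE liver. The 8 macrophage markers summed to 61.0 to 128 FPKM in null liver and to 199, 111 and 106 FPKM in hHKDC1 OE liver, with overlap. Of these 8, 7 were higher in hHKDC1 OE liver by the fitted values. The part of these cells in the Fabp4 and Cd36 levels was not tested.

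The remaining members were low in liver or differed little. Cav1 was at 0.53, 0.77 and 1.37 FPKM in hHKDC1 OE liver, 22 to 66 counts, against 0.94 to 1.97 FPKM in null liver, a log2 fold change of -0.74 (standard error 0.43). Lpl was at 1.61, 1.41 and 1.25 FPKM against 1.07 to 2.83 FPKM, and its log2 fold change of -0.33 (standard error 0.33) turned to 0.17 without null replicate 3. Slc27a1 was at 1.64, 2.97 and 2.49 FPKM against 1.20 to 2.52 FPKM, and differed by 0.46 on the log2 scale (standard error 0.32). Slc27a4 at 12.6, 10.1 and 9.11 FPKM and Fabp5 at 9.75, 11.0 and 10.8 FPKM had null ranges of 10.1 to 13.5 and 5.74 to 12.5. Slc27a4 lay below the null range in replicate 3 and by a narrow margin in replicate 2, and Fabp5 lay within it. Adjusted p by edgeR was 0.795 to 0.973 for these 5 genes.

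**Figure D5:**
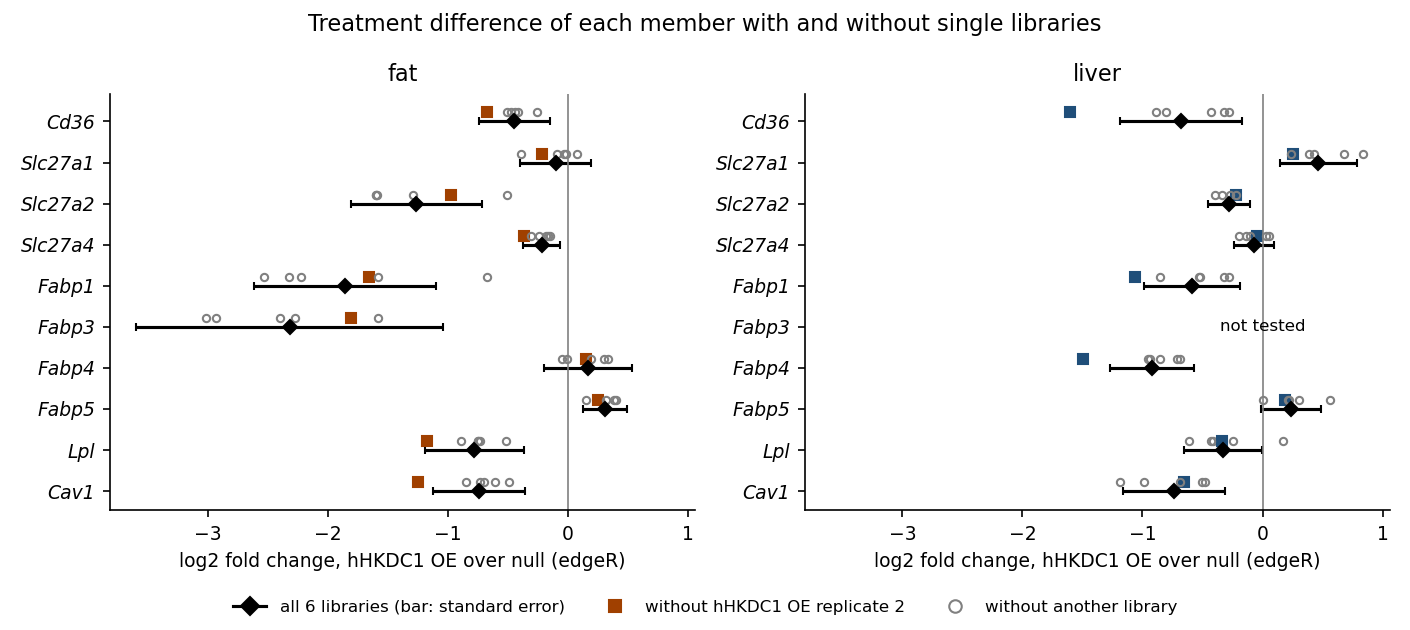
Log2 fold change of hHKDC1 OE over null for each member in fat (left) and liver (right) by edgeR, with all 6 libraries of the tissue (diamonds, with standard error), without hHKDC1 OE replicate 2 (filled squares) and without each other library (open circles). Lpl and Cav1 in fat reach -1.17 and -1.25 and Cd36 and Fabp4 in liver reach -1.60 and -1.49 without hHKDC1 OE replicate 2, and Fabp1 in fat moves to -0.68 without a null library.

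Whether the vectors differed more in one tissue than in the other was asked of an interaction term fitted to all 12 libraries. By edgeR 0 of 10 members and 0 of 17070 genes (0.0%) were called, with 2163 genes and 1 member at an unadjusted p under 0.05. DESeq2 called 497 genes, no member among them. Fabp4 had the largest positive term, 1.18 on the log2 scale (standard error 0.54), since its values were lower in hHKDC1 OE liver and not in hHKDC1 OE fat, and its adjusted p was 0.392. Cd36 and Cav1, lower by the fitted values in both tissues, had terms of 0.33 (standard error 0.69) and 0.07 (standard error 0.57). The standard errors of these terms were 0.23 to 0.95 for the members other than Fabp3.

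Other genes of fatty acid uptake and handling were read from a list of 43 that holds none of the members. In fat 36 of them were tested and 0 were called by edgeR, with 7 at an unadjusted p under 0.05. Of the 36, 31 were lower by the fitted values, with a median of -0.42 on the log2 scale beside -0.05 over all genes tested. The 7 genes of caveolae had negative log2 fold changes with a median of -0.60, and their adjusted p was 0.342 to 0.615 by edgeR. As with Cav1, hHKDC1 OE replicate 2 stood apart from replicates 1 and 3: Cavin1 was at 184, 411 and 194 FPKM and Cavin3 at 30.8, 176 and 39.1 FPKM, and in replicate 2 both were above every null library. Cav3 and Cavin4, the muscle forms, were highest in the libraries with the highest muscle marker sums, and the part of muscle in their levels was not tested.
The 2 genes of the list with the largest log2 fold changes in fat were Fabp2, the intestinal FABP, and Mfsd2a, a transporter of lysophospholipid-bound fatty acids. Fabp2 had 59, 39 and 286 counts in null fat, against 41, 18 and 24 with hHKDC1 OE, a log2 fold change of -2.31 (standard error 0.76) with an adjusted p of 0.202 by edgeR. Mfsd2a had 124, 183 and 439 counts in null fat, against 98, 41 and 54 with hHKDC1 OE, a log2 fold change of -2.09 (standard error 0.51) with an adjusted p of 0.136 by edgeR. Both were highest in null replicate 3, the library with the most hepatocyte marker RNA, and both were far more abundant in liver, at 220 to 240 FPKM for Fabp2 and 149 to 205 FPKM for Mfsd2a in the null mice.

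In liver 34 genes of the list were tested and 0 were called by edgeR, with 6 at an unadjusted p under 0.05, and the median log2 fold change was -0.25. Angptl8, an inhibitor of lipoprotein lipase that feeding induces, was at 108, 105 and 28.3 FPKM in hHKDC1 OE liver and at 30.0, 38.4 and 17.2 FPKM in null liver. Replicate 3 of hHKDC1 OE lay inside the null range. Angptl8 differed by 1.53 on the log2 scale (standard error 0.46), with an adjusted p of 0.539 by edgeR. Cavin3, a coat protein of caveolae, had 1, 8 and 9 counts in hHKDC1 OE liver and 13, 13 and 16 in null liver, too few to tell the libraries apart well, and its adjusted p was 0.759 by edgeR.

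Between the tissues, 37 genes of the list were tested in null mice, of which 12 were called higher in fat and 20 lower, beside 33.8% of all genes tested called higher and 30.5% called lower. With TMM scaling the share of the list called higher was thus near that of all genes, and the share called lower was above it. The shares of all genes depended on the scaling, and the list was set beside them under TMM only. The 6 caveolar genes tested were all higher in fat, as Cav1 was, with a median log2 fold change of 6.95. The largest rises in fat were in Cavin4 and Ehd2. Cavin4, a muscle form of the caveolar coat, was at 6.31, 6.90 and 0.55 FPKM in null fat, in the same order as the muscle marker sums, and at 0 to 0.043 FPKM in null liver, so no fold is given. Ehd2, an ATPase at the neck of caveolae, was at 228, 219 and 226 FPKM in null fat and at 1.07, 1.10 and 0.97 FPKM in null liver, a log2 fold change of 7.69 (standard error 0.22). The largest falls were in Slc27a5, the bile acid-CoA synthetase of liver, and Apoc3, an apolipoprotein that slows lipoprotein lipolysis, with log2 fold changes of -5.77 (standard error 0.52) and -5.62 (standard error 0.56).

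The genes whose pattern over the 12 libraries was most like that of 4 members were read after the mean of each tissue was removed from log2(FPKM + 1). Of 17070 genes, those nearest to Lpl were Ubtd2, Plekha4 and Abhd12, with Pearson r of 0.968, 0.962 and 0.950. Nearest to Cd36 were Scd1, the stearoyl-CoA desaturase, Mogat1, a monoacylglycerol acyltransferase, and Prickle1, with r of 0.937, 0.927 and 0.923. Nearest to Fabp1 were Sec14l2, Nr1i2, the pregnane X receptor, and Dpys, with r of 0.955, 0.946 and 0.937. Nearest to Fabp4 were Pole4, Slc25a38 and Ndufa7, with r of 0.896, 0.895 and 0.895. The 12 points share depth, tissue pieces and cell mixture, so these values describe the libraries only.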

How the data were processed

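RNA of liver and subcutaneous fat was sequenced from null and hHKDC1 OE mice, 3 libraries per group, from libraries without strand information. The authors aligned reads by STAR (2.5 in the processing notes, with a later version also named in the methods), HTSeq 0.6.1 assigned them to genes, and the deposited counts are whole numbers without normalization for 54532 mouse genes. Although the methods state a human reference, the identifiers are mouse genes, 99.9% of them in GENCODE M21 and 98.3% at the same GRCm38 position. The deposited FPKM values were recomputed as counts over the authors' gene length and the DESeq2 size factor of 12 libraries, and 100% agreed within 1%, so FPKM of a library depend on both tissues. The authors' table of their own fat comparison, with fold changes and p-values, was not used.

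Counts were fitted with edgeR 4.0.16 (TMM, filterByExpr, glmQLFit and glmQLFTest) in R 4.3.3, each comparison on its own libraries, with no replicate term, and the interaction over 12 libraries. Benjamini-Hochberg adjustment covered all genes tested and calls were made at 0.05. Alternatives were DESeq2 1.42.0, upper-quartile scaling, library size alone, no low-count filter, at least 10 counts in every library, 12 libraries in 1 fit, a replicate block, limma 3.58.1 on log2(FPKM + 1) and log2(FPKM + 0.1) at a mean FPKM of at least 0.1, and each library left out. Leaving out pairs of fat libraries was chosen after seeing the data. The scripts were tested on simulated data. Depth was 15496019 to 19954971 counts, and 0 counts allow up to 3. Intervals and limits cover counting error only. Replicates of a group differed by a chi-square per gene of 21.8 to 173, so none was one library deposited again.

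Named were the 10 members, genes of the 43-gene list past the threshold or else the 2 with the largest change in each tissue, the 2 largest rises and falls of that list between tissues, and 3 genes most like each of 4 members. Outside this rule, the caveolar genes Cavin1, Cavin3, Cav3 and Cavin4 were also named in fat. Members and lists were chosen with earlier results of these data known. Marker genes were used as sums, Alb singly.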

Additional observations from a re-analysis of the deposited data

How the results depend on the processing

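The count of members called in fat was 0 by edgeR with all libraries and 1 with DESeq2. It ranged from 0 to 2 over the fits that leave out a single library. With hHKDC1 OE replicate 2 and null replicate 3 both left out it was 2, Cav1 and Fabp3. These are the libraries with the least Fabp3, and hHKDC1 OE replicate 2 had the most Cav1 of its group, so neither call is a test. In liver it was 1 with no low-count filter and ranged from 0 to 1 over single libraries left out. Between tissues 10 members were called in each group, and the alternatives gave 9 or 10. The member lost was Slc27a4, or Fabp3 where at least 10 counts in every library were asked, which left it untested. The Slc27a4 difference turned to 0.33 in null and 0.27 in hHKDC1 OE mice with library size alone. In fat the log2 fold change of Slc27a1 turned to 0.046 with library size alone, 0.0094 with hHKDC1 OE replicate 2 and null replicate 3 left out and 0.092 with hHKDC1 OE replicates 1 and 3 left out, where Slc27a4 turned to 0.013. Over single libraries left out it ranged from -0.39 to 0.078 for Slc27a1 and from -0.049 to 0.34 for Fabp4 in fat, and from -0.20 to 0.052 for Slc27a4 and from -0.61 to 0.17 for Lpl in liver. The interaction terms near 0 turned sign: that of Cav1 to -0.013 with the replicate block, -0.48 and -0.16 by limma, that of Fabp5 to -0.0096 by limma with the smaller pseudocount, and over single libraries left out Cd36 ranged from -0.098 to 1.23, Slc27a4 from -0.41 to 0.062, Fabp3 from -4.54 to 1.03, Fabp5 from -0.16 to 0.39 and Cav1 from -0.63 to 0.52. The cause of these moves was not tested. The labels do not say what a replicate number marks. Same-numbered samples correlated at -0.13 to 0.25 over the comparisons, and at 0.0081 to 0.25 between liver and fat, not above 0.1 in every pair. The replicate block called 0 members in fat, liver and the interaction and 10 in each comparison of tissues, with 168 genes called in fat and 17 in liver. Over all genes the count in fat ran from 0 to 3364, and in liver from 0 to 327. In fat the hepatocyte, macrophage, B cell and T cell marker sums of the groups were apart as CPM as well as FPKM. In liver the hepatocyte sums were apart on both scales, and the sums of the 8 endothelial markers only as FPKM. Depth limits Cav1, Fabp4, Lpl and Slc27a1 in liver, with 22 to 358 counts, and Fabp3 there.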
